A study of Mus musculus with 4 samples.

Results

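Vcan-expressing monocytes of the inflamed mouse spinal cord were taken as single cells by a rule on raw unique molecular identifiers (UMIs, the count of distinct captured RNA molecules). A cell had to hold 500 or more UMIs, 200 or more genes and at most 10% mitochondrial UMIs. It also had to hold Lyz2 at 10 or more UMIs, Csf1r at 1 or more, fewer than 5 UMIs over the microglial genes Sparc, P2ry12, Tmem119 and Crybb1, and no Flt3 or Cd3e. S100a8 and S100a9 had to stay under 5% of UMIs, Gpnmb under 10, Arg1 under 5 and Cxcl9 under 3 UMIs, and Vcan had to reach 3 UMIs. The rule found 492 cells among 28598 cells kept: 159 in control library 1, 118 in control library 2, 92 in Reg1-MO library 1 and 123 in Reg1-MO library 2.

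The study sorted CD45+ immune cells from the spinal cord of C57BL/6 mice immunized to develop EAE, experimental autoimmune encephalomyelitis, which is a T cell driven model of multiple sclerosis. The mice had received Ctrl MO or Reg1-MOs by intracranial injection on day 9 after immunization, and cells were collected on day 16, after collagenase D digestion and removal of myelin on Percoll. All 4 libraries, 2 per group, therefore come from immunized and injected animals, and no unimmunized or uninjected group was analysed here. The labels do not spell out MO or Reg1-MO. From what is known of the study, and not from the files, they are read here as antisense morpholinos directed at the transcript of Zc3h12a, which encodes Regnase-1, an RNase that degrades inflammatory mRNAs and also its own. Whether they lower or raise Regnase-1 is not given by the labels, and neither direction is assumed here. The labels number the libraries 1 and 2 in each group without saying whether they came from separate animals, so p-values measure only the spread between these libraries.

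As background, classical monocytes leave the bone marrow through the chemokine receptor Ccr2, enter the inflamed central nervous system and mature there into macrophages and antigen-presenting cells. Vcan encodes versican, a large chondroitin sulfate proteoglycan of the extracellular matrix that monocytes make. F13a1 encodes the A subunit of coagulation factor XIII, Fn1 encodes fibronectin, and Ms4a8a encodes a membrane protein of the MS4A family. During maturation monocytes turn down such transcripts and turn on complement C1q, MHC class II and lysosomal genes.

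Each library held 75472324 to 174552218 UMIs in all. The members held a median of 12634 to 14546 UMIs per cell in the 4 libraries and 8075108 UMIs in all, and the sum over members was 1537856 to 2612925 UMIs per library. Between 10 and 78 cell barcodes were shared by any pair of libraries, none was shared between members, and 4 members carried a barcode also present in another library. No doublet caller was used for the main values, because the automatic threshold of Scrublet marked 0 cells in both control libraries. Cells above the S100a8 and S100a9 limit, which the rule removed, made up 25.3% and 37.1% of the control libraries against 5.38% and 19.9% of the Reg1-MO libraries. Control library 2 stood apart in its interferon genes, as described with those genes.

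Vcan monocytes were a small population whose share did not separate the groups at full depth. They formed 1.97% (159 of 8081 cells, 95% Wilson interval 1.69 to 2.29) and 1.78% (118 of 6632, 1.49 to 2.13) of cells in control libraries 1 and 2. In Reg1-MO libraries 1 and 2 they formed 1.06% (92 of 8715, 0.862 to 1.29) and 2.38% (123 of 5170, 2.00 to 2.83). The 2 Reg1-MO libraries lay on either side of both controls, and the intervals of these 2 libraries did not meet, so the libraries of 1 treatment differed more than the groups did. The means were 1.87% ± 0.133 (SD, n = 2) for control and 1.72% ± 0.936 (n = 2) for Reg1-MO (two-sided exact permutation test, p = 1, where 2 against 2 libraries cannot give less than 0.333). The intervals cover counting error only.

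Among the 6358 monocytes and macrophages that met the Lyz2, Csf1r, microglial, Flt3, Cd3e and S100 conditions, the share of Vcan monocytes was 9.63% in control library 1, 10.8% in control library 2, 3.66% in Reg1-MO library 1 and 11.2% in Reg1-MO library 2 (exact permutation p = 1). Reg1-MO library 1 was the low one on both denominators, and without it the group difference changed sign, to 0.928 percentage points higher in Reg1-MO. That gate was divided in order into Gpnmb-high, Arg1-high and Cxcl9-expressing cells, Vcan monocytes and a remainder with Vcan under 3 UMIs, called low-Vcan cells here. When every cell was first thinned to 5000 UMIs, the Vcan share of all cells kept at that depth was 1.81% and 1.83% in the controls and 0.646% and 1.51% in Reg1-MO. At equal depth the groups thus did not overlap (exact permutation p = 0.333, the smallest possible). Within the monocyte and macrophage gate of the thinned cells, the share was 6.54% and 8.18% in the controls and 1.78% and 6.04% in Reg1-MO. These groups did not overlap either (exact permutation p = 0.333). Cells under 5000 UMIs were left out there, 4973 of all cells and 11 of the members, and a threshold of 3 UMIs selects for higher Vcan once cells are thinned.

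**Figure D1:**
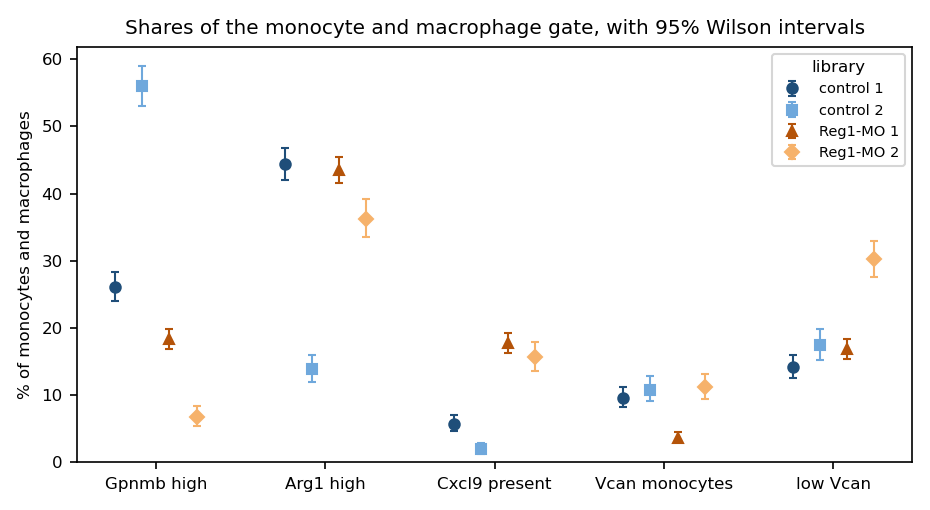
Share of the monocyte and macrophage gate (percent, y axis) held by each of its 5 divisions (x axis) in each library, with 95% Wilson intervals for counting error. The Vcan monocytes lie between 9.63% and 11.2% in 3 libraries and at 3.66% in Reg1-MO library 1, whereas the share of Cxcl9-expressing cells does not overlap between the groups and is higher in Reg1-MO, and that of Gpnmb-high cells does not overlap and is lower in Reg1-MO.

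At full depth the other 3 marker genes were found in most of the selected cells, Ms4a8a least often. Vcan chose the cells, so its own level only describes them. On mm10, Vcan lies at chr13:89655312-89742509, F13a1 at chr13:36867178-37050244, Ms4a8a at chr19:11067471-11081102 and Fn1 at chr1:71585520-71653200 (GENCODE M21), all protein-coding genes on the minus strand. F13a1 was detected in 91.1% to 98.3% of members per library and in 1.39% to 4.35% of T cells (Cd3e at 2 or more UMIs, Lyz2 under 10), the type taken to lack it. Fn1 was detected in 95.9% to 100% of members and Ms4a8a in 52.0% to 83.0%, against at most 8.02% and 1.45% of T cells. T cells were shallower, with medians of 7307 to 7791 UMIs. At a common depth of 5000 UMIs, F13a1 was found in 83.7% to 98.2% of members and 47.7% to 81.1% of low-Vcan cells, so F13a1 is shared with the low-Vcan cells and not a sharp border. The monocyte genes Ly6c2, Ccr2 and Plac8 were each detected in at least 96.6% of members in every library. T cells, which make some of these transcripts too, held Ly6c2 in 37.2% to 49.5%, Ccr2 in 52.6% to 60.9% and Plac8 in 43.0% to 66.3% of cells. These genes, which the rule did not use, were those of monocytes, as the label says.

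The threshold cut through a continuous range of Vcan. The members held a median of 11, 12, 7 and 8 Vcan UMIs in control libraries 1 and 2 and Reg1-MO libraries 1 and 2, with highest values of 54, 53, 42 and 64. In all, 246 members had 10 or more Vcan UMIs, 150 had 5 to 9 and 96 had 3 or 4. Just inside the threshold, 61 members had exactly 3 Vcan UMIs, and just outside it 82 cells that met every other condition had 2. The members with 3 Vcan UMIs held 1059, 1646, 1193 and 1578 counts per 1000000 UMIs (CPM) of F13a1 in the 4 libraries, and the cells with 2 held 1070.0, 1425, 843 and 1006. F13a1 was thus on a similar scale on both sides of the threshold.

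Set against the low-Vcan cells of the same gate, the Vcan monocytes carried more transcripts of blood monocytes and fewer of mature macrophages. This contrast is a description without a test, because Vcan defined both sides. It is given as the log2 ratio of CPM within each library, with a pseudocount of 1 CPM. The coagulation factor gene F5 was 194, 166, 115 and 136 CPM in members and 47.2, 44.8, 28.8 and 34.1 CPM in low-Vcan cells, a log2 ratio of 1.87 to 2.02 across the 4 libraries. F13a1 was higher by 1.47 to 1.87. Chil3, a chitinase-like secreted protein, was higher by 1.39 to 1.69, and the interferon-induced transmembrane gene Ifitm6 by 1.68 to 2.14. Plcb1, Grk5, Dgkg and Arhgap26, genes of signalling by G proteins, lipid second messengers or small GTPases, were each higher by at least 1.33 in every library. Add3, an adducin of the membrane skeleton, the cell cycle inhibitor gene Cdkn2d, and Tmem156 were also among the genes with the highest smallest ratio, with Mmp8 and Lcn2. The last 2 encode granule proteins of neutrophils.

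The genes at the other end were those of antigen presentation and C1q. H2-Eb1, a beta chain of MHC class II, was 144, 158, 121 and 291 CPM in members against 2136, 1720, 3347 and 2992 in low-Vcan cells, a log2 ratio of -4.78 to -3.36. H2-Ab1 and H2-Aa were lower by similar amounts, with ratios of -4.11 to -3.06 and -4.40 to -2.88. The complement genes C1qa, C1qb and C1qc had ratios between -4.69 and -2.79. Spp1, which encodes osteopontin, Ms4a7, the efferocytosis receptor gene Mertk and the tetraspanin gene Cd63 also lay below -2.65 in every library. At 5000 UMIs, H2-Aa was found in 14.3%, 14.3%, 28.3% and 19.5% of members against 11.5%, 5.07%, 25.5% and 10.6% of T cells. C1qa was found in 10.4%, 6.25%, 19.6% and 14.6% of members and in 11.3%, 6.81%, 18.9% and 9.85% of T cells. C1qa in the controls was thus at or below the level in T cells, which is read as background, whereas H2-Aa was above it in each library, most in control library 2 and Reg1-MO library 2.

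**Figure D2:**
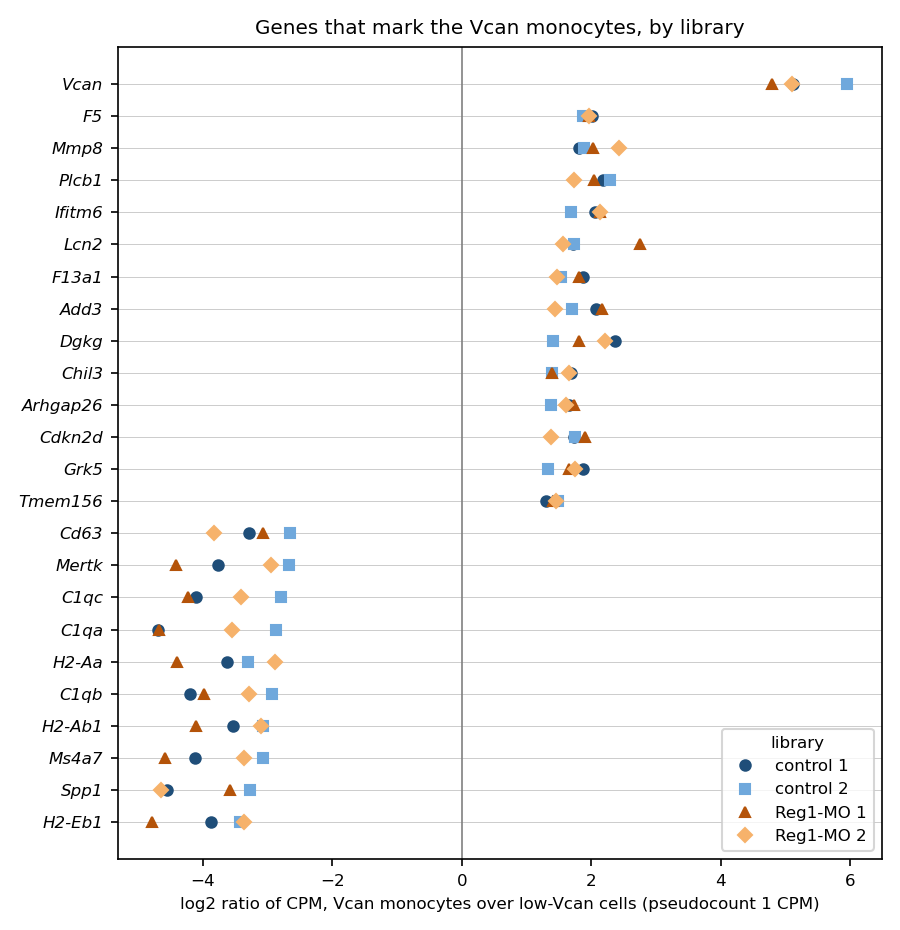
Log2 ratio of CPM in Vcan monocytes over low-Vcan cells of the same library (x axis) for 14 of the genes with the highest smallest ratio and the 10 with the lowest largest ratio among genes at a mean of 50 CPM or more; each point is 1 library. All 4 libraries lie on the same side of 0 for each gene, which is how the genes were ranked.

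The lists gave the same picture, read against a background of 25% of 9149 genes higher and 20% lower in all 4 libraries. Of 20 classical monocyte genes 14 were higher in every library, Ly6c2 by 0.41 to 0.57, Ccr2 by 0.40 to 0.65 and the haptoglobin gene Hp by 0.78 to 1.63, and 1 was lower. Of 18 cell cycle genes 15 were higher, among them the proliferation antigen gene Mki67 by 1.21 to 2.83 and the topoisomerase gene Top2a by 0.91 to 2.65. All 8 MHC class II genes, 17 of 18 macrophage maturation genes, 16 of 17 lysosomal genes and 12 of 14 complement and Fc receptor genes were lower. The lysosomal exception was Lamp2, and C3 and Cfp, which encode complement C3 and properdin, were higher in the complement list. Pattern recognition receptors were mixed, with 4 of 16 higher and 2 lower. At 5000 UMIs, Mki67 was found in 17.9% to 24.03% of members, 4.83% to 12.4% of low-Vcan cells and 9.27% to 11.7% of T cells.

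These differences ran along the amount of Vcan and did not begin at the threshold. Among cells meeting the other conditions, Apoe, an apolipoprotein of lipid-handling macrophages, went from 10629, 12919, 8494 and 4563 CPM at 0 Vcan UMIs to 872, 1968, 474 and 357 CPM at 10 or more, in control libraries 1 and 2 and Reg1-MO libraries 1 and 2. H2-Aa went from 3477, 2724, 5314 and 4808 CPM to 36.9, 102, 172 and 292 CPM. F13a1 ran the other way, from 558, 886, 415 and 601 CPM to 2964, 3179.6, 2238 and 2056 CPM. Within the members, those with 3 or 4 Vcan UMIs had 575 to 1007 CPM of H2-Aa, more than those with 10 or more in each library. Cells with more UMIs also pass a fixed UMI threshold more readily. The median depth at 10 or more Vcan UMIs was 14000, 14034, 12487 and 14289 UMIs in the same order of libraries. At 0 Vcan UMIs it was 13054.5, 13271, 11638 and 13659 UMIs, somewhat lower in each library. The part of depth in these differences was not tested.

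**Figure D3:**
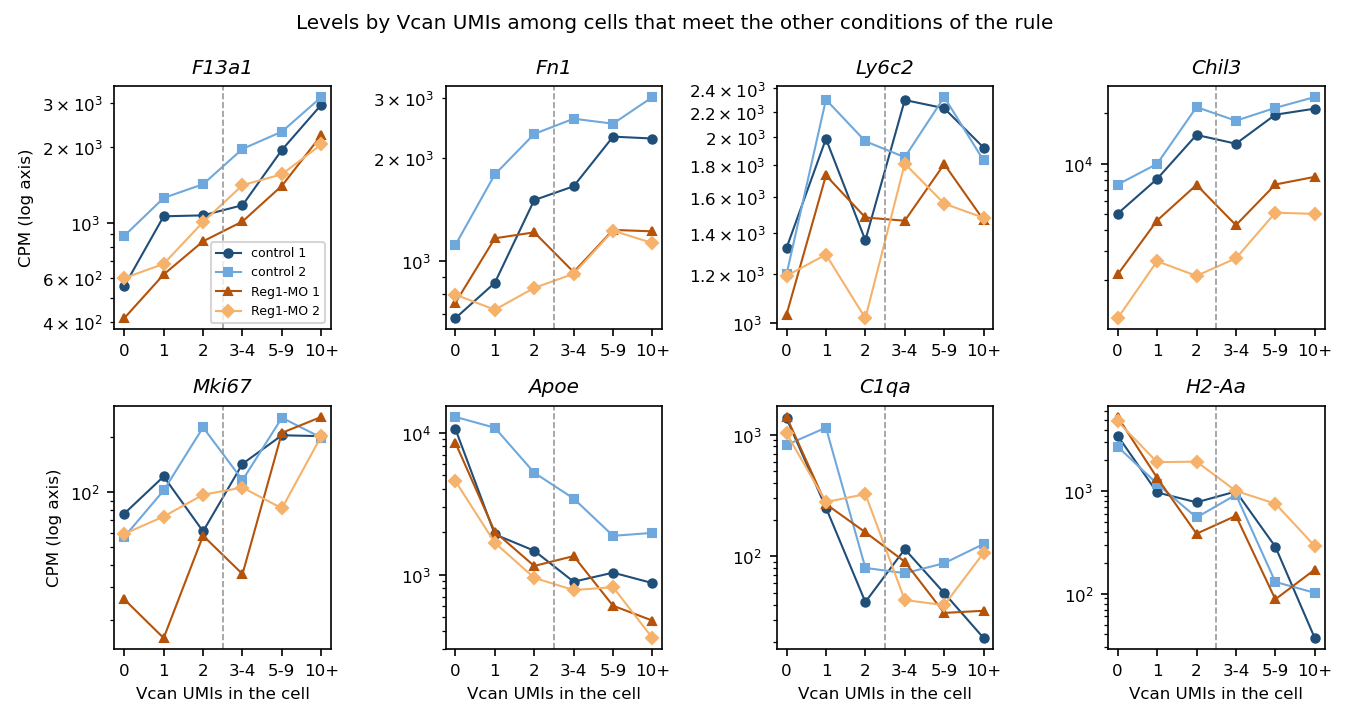
CPM (log axis) of 8 genes in cells grouped by their Vcan UMIs (x axis), 1 line per library; the dashed line marks the threshold of 3 UMIs. F13a1 is higher and Apoe, C1qa and H2-Aa lower in cells with 10 or more Vcan UMIs than in cells with 0 in all 4 libraries, and for Fn1 and Chil3 the Reg1-MO libraries lie below the controls among cells past the threshold.

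Markers of other cell types were low in the members, apart from those of neutrophils. The 12 neutrophil markers summed to 6710, 9690, 4894 and 1906 CPM in control libraries 1 and 2 and Reg1-MO libraries 1 and 2, most of it S100a8 and S100a9, whereas the neutrophil antigen gene Ly6g was found in at most 5.08% of members. T cell markers summed to at most 33.2 CPM, with Cd3e at 0 by the rule, and dendritic cell markers to at most 9.75 CPM with Flt3 and Xcr1 at 0. Microglial markers summed to 162 to 239 CPM and natural killer markers to 18.8 to 117 CPM. Both Reg1-MO values of the neutrophil sum lay under the lower control value. The rule itself limits S100a8 and S100a9, which make up most of that sum, so this only describes the members.

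With Reg1-MO treatment, 2 of the 4 marker genes of these monocytes, Ms4a8a and Fn1, were lower. Of 9125 genes tested on UMIs summed per library with edgeR's quasi-likelihood test, 24 passed a Benjamini-Hochberg adjusted p of 0.05, or 0.263%; 9 were higher in Reg1-MO (0.0986%) and 15 lower (0.164%), and 1296 had an unadjusted p under 0.05. Levels in the treatment comparison are CPM scaled by TMM, and fold changes are edgeR's log2 values with their SE. Ms4a8a was 254 and 279 CPM in the controls and 90.2 and 65.3 CPM in Reg1-MO, a log2 fold change of -1.78 ± 0.18 (adjusted p = 0.0115). Fn1 was 2224 and 2836 CPM against 1181 and 1106 CPM, -1.15 ± 0.14 (adjusted p = 0.0162). The groups of both genes lay well apart, and both fell. F13a1 was 2467 and 2762 CPM against 1649 and 1779 CPM, without overlap, but missed the test at -0.61 ± 0.11 (adjusted p = 0.0614). It passed in 7 of 14 alternatives, among them DESeq2 (adjusted p = 0.0290) and cells thinned to 5000 UMIs (adjusted p = 0.0180), and had an adjusted p of up to 0.369 in the others. Vcan, which selected the cells, stood at 801 and 816 CPM against 570.0 and 719 CPM.

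The calls depended on how the cells were defined and on 1 library. The conditions on Gpnmb, Arg1 and Cxcl9 removed unequal numbers of cells by library. Dropping them raised the members from 159 to 262 and from 118 to 129 in control libraries 1 and 2. In Reg1-MO libraries 1 and 2 they rose from 92 to 204 and from 123 to 181. Of the cells removed, 23, 3, 54 and 29 in these 4 libraries were lost to the Cxcl9 condition, applied last. With all 776 cells edgeR called 0 genes (1150 at an unadjusted p under 0.05). All 24 genes kept their direction, with adjusted p of 0.173 or more. Without Reg1-MO library 2, 9 genes were called, 7 of them among the 24, and with Vcan at 2 UMIs or more 11 were.

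Several of the genes that fell are known to be made by neutrophils too. Chil3 was the most abundant, at 19923 and 23074 CPM in control and 7244 and 4504 CPM in Reg1-MO (-1.87 ± 0.19, adjusted p = 0.0115); its reads may be shared with the near-identical gene Chil4. Mmp8, the neutrophil collagenase gene, was 593 and 888 CPM against 167 and 205 CPM (-1.99 ± 0.21, adjusted p = 0.0115). Il1r2, a decoy receptor for interleukin-1, was 548 and 601 CPM against 188 and 120.2 CPM (-1.90 ± 0.20, adjusted p = 0.0115). Wfdc21, a small secreted protein gene, was 257 and 417 CPM against 65.8 and 36.4 CPM (-2.74 ± 0.30, adjusted p = 0.0115). In each of these 4 genes the lower control library held more than 2 times the higher Reg1-MO library.

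Transcripts of Chil3, Mmp8 and Wfdc21 found in T cells moved the same way. Where those transcripts came from was not measured, and their part in these results was not tested. In T cells, which should lack them, Chil3 stood at 94.5, 111, 17.5 and 7.74 CPM, Mmp8 at 12.1, 23.2, 2.21 and 2.10 CPM and Wfdc21 at 9.42, 16.4, 2.34 and 4.01 CPM in control libraries 1 and 2 and Reg1-MO libraries 1 and 2. Members held more of each of these 3 genes than T cells in every library. Il1r2, which T cells express themselves, was 115 to 231 CPM there, near the level of the Reg1-MO members. With members limited to cells with S100a8 and S100a9 under 1% of UMIs, the log2 fold changes were -1.80 for Chil3, -1.93 for Mmp8, -2.81 for Wfdc21 and -1.82 for Il1r2, each still past the test. Ms4a8a, at most 1.97 CPM in T cells, was at -1.84 in that subset and Fn1 at -1.15. Of the 10 tested neutrophil markers, 10 were below 0 (51.1% of all tested genes were), all without overlap (24.5% of all genes were lower without overlap). Their median was -1.60, or -1.77 without S100a8 and S100a9, which the rule used, and 1 of them, Mmp8, was called. Over all tested genes the median was -0.01.

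Cd33, which encodes a receptor for sialic acid on myeloid cells, was 117 and 126 CPM in control against 44.1 and 36.9 CPM in Reg1-MO (-1.59 ± 0.17, adjusted p = 0.0115). Fpr1, the receptor for formylated peptides that guides phagocytes, was 22.4 and 33.3 CPM against 3.29 and 3.16 CPM, or 58 and 67 UMIs against 5 and 6 (-3.07 ± 0.38, adjusted p = 0.0200). Crispld2, a secreted protein gene, was 77.2 and 104 CPM against 19.8 and 6.85 CPM (adjusted p = 0.0217), and Shtn1, which encodes shootin-1, was 83.0 and 125 CPM against 32.3 and 22.1 CPM (adjusted p = 0.0284). Scrg1 was 73 and 106 UMIs against 0 and 5 UMIs (adjusted p = 0.0284); a sum of 3 UMIs in Reg1-MO library 1 would be 1.95 CPM. In all 5 genes both Reg1-MO libraries lay under the lower control by more than the controls differed. The other genes that fell, Wwox, St7, Tmem156 and the histone transcript Hist1h2ap, had group means 1.87 to 4.57 times lower in Reg1-MO. Hist1h2ap belongs to a family of near-identical copies, so its count is uncertain.

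**Figure D4:**
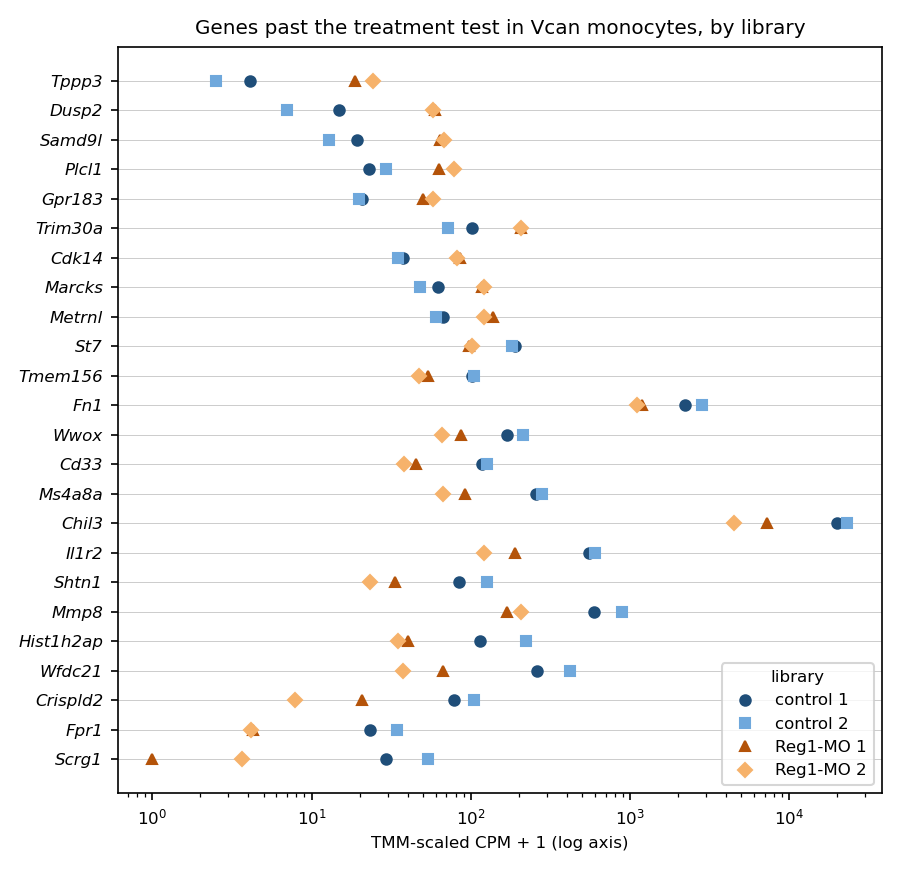
TMM-scaled CPM plus 1 (log axis) of the 24 called genes in each library, ordered by log2 fold change. For each gene the 2 Reg1-MO libraries lie on one side of the 2 controls; Chil3, at 19923 and 23074 CPM in control, is the most abundant.

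Among the 9 genes that rose, Samd9l, which encodes an interferon-induced antiviral factor, was 18.1 and 11.9 CPM in control and 62.5 and 66.9 CPM in Reg1-MO (2.08 ± 0.23, adjusted p = 0.0115). Dusp2, a nuclear phosphatase acting on MAP kinases, was 13.9 and 5.97 CPM against 58.6 and 56.9 CPM (2.48 ± 0.31, adjusted p = 0.0200). Tppp3, a tubulin-binding protein gene, was 3.09 and 1.49 CPM against 17.8 and 23.2 CPM (3.09 ± 0.42, adjusted p = 0.0291). Gpr183, an oxysterol receptor that positions immune cells, was 19.7 and 18.9 CPM against 48.7 and 56.9 CPM (1.45 ± 0.20, adjusted p = 0.0299). The remaining genes were Plcl1, Cdk14, Metrnl, Marcks and Trim30a, with group means 2.05 to 2.76 times higher. Dusp2 and Gpr183 are T cell genes as well, detected in at least 70.4% of T cells in each library, while T cell markers in members summed to 29.9, 2.96, 33.2 and 25.8 CPM; their part in these 2 results was not tested. Without Reg1-MO library 2, 1 gene was called higher. Gngt2, a G protein gamma subunit gene, came next at 64.8 and 62.1 CPM against 119.8 and 174 CPM, and Oas2, an interferon-induced antiviral enzyme gene, at 11.6 and 7.96 CPM against 29.6 and 33.7 CPM, both without passing the test.

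Trim30a, an interferon-induced ubiquitin ligase gene, was 101 and 71.1 CPM in control and 204.04 and 204.5 CPM in Reg1-MO (1.24 ± 0.18, adjusted p = 0.0328). It was the 1 gene among the 15 called genes with a RefSeq promoter window (GRCm38.p6, 250 bases before to 50 after the start) that held GAAA, any 2 bases and GAAA on either strand, the core of the element bound by interferon-activated factors; 3.99% of all genes with a window held it. Of the type I interferon genes described next, 7 of the 13 with a window held it. The matches of Trim30a and of 3 of those genes are shown with their surroundings, all before the start, 5′ to 3′ on the strand of the gene, with the matching letters in capitals.
Trim30a (chr7:104465210-104465239, minus strand): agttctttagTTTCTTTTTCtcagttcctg
Isg15 (chr4:156200871-156200900, minus strand): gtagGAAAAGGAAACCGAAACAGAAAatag
Ifit1 (chr19:34640785-34640814, plus strand): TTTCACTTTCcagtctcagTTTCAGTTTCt
Rsad2 (chr12:26456553-26456582, minus strand): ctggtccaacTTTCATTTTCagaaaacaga
The printed stretches hold 1, 3, 2 and 1 matches, and those of Isg15 overlap each other. A match describes the letters and was not tested as a binding site. Of the other motifs searched on both strands, TTC, any 3 bases and GAA was in the windows of Il1r2 and Chil3 (9.55% of all genes) and the C/EBP-type TTGC, any 2 bases and AA in those of Mmp8 and Gpr183 (12.2%). The NF-κB-type GGGA, any base and TTTCC (0.466%) and the glucocorticoid-type GNACA, any 3 bases and TGTNC (0.537%) were in none of the 15. Overlaps between different motifs were not counted.

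Type I interferon genes, the antiviral set induced through the receptor shared by interferon alpha and beta, were higher in Reg1-MO without reaching the test gene by gene. All 17 tested members were above 0 (48.9% of all tested genes were), and their median was 1.70 on the log2 scale. Of them 16 did not overlap between groups (22.4% of all genes were higher without overlap). EdgeR called 0, with 16 at an unadjusted p under 0.05 (1296 of all 9125 genes). DESeq2 called 5. Ifitm3, which blocks viral entry, was 2457 and 1667 CPM in control and 3659.6 and 4259 CPM in Reg1-MO (0.94 ± 0.17, adjusted p = 0.0614). Ifi27l2a was 465 and 187 CPM against 889.9 and 1278 CPM (1.73 ± 0.35), and Ifi204, a DNA sensor, was 172 and 87.5 CPM against 286 and 281 CPM (1.12 ± 0.26). Ifit1 stood at 17.4, 1.99, 39.5 and 69.0 CPM, Isg15 at 59.0, 10.4, 96.8 and 198 CPM and Rsad2 at 40.1, 1.49, 55.3 and 115 CPM; the 3 were named for their promoters. Control library 2 held the lowest value of all 17 genes. The list summed to 3622.8 and 2119.5 CPM in control and 5740.1 and 7169.8 CPM in Reg1-MO, and without control library 2 its median was 1.14 and without control library 1 it was 2.83. Those fits called 13 and 17 of 18 tested members, with 1 control library left that is assumed to vary like the other group.

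The interferon gamma list, genes induced by the T cell and natural killer cytokine, depended more on control library 2. Of its 19 tested members 17 were above 0 (48.9% of all tested genes were). Of the 19, 14 were higher without overlap (22.4% of all genes), and the median was 1.21. EdgeR called 0 and DESeq2 0, and 7 had an unadjusted edgeR p under 0.05 (1296 of all 9125 genes). Cxcl10, a chemokine for activated T cells, was 424 and 3.98 CPM in control, or 1099 and 8 UMIs, against 1061 and 774 CPM in Reg1-MO. Control library 2 was thus far below the other 3 libraries. Cxcl10 was detected in 19.5% and 4.24% of control members against 56.5% and 35.0% of Reg1-MO members, and in 3.62% to 13.2% of T cells. Gbp2, an interferon-induced GTPase gene, was 242 and 19.9 CPM against 438 and 262 CPM. All 19 genes were lowest in control library 2, and without it the median was 0.47. Cxcl9, which limits membership, is in this list, and the median without it was 1.17. Nos2, which encodes inducible nitric oxide synthase, and Serpina3g were the 2 below 0; Nos2 was 48.6 and 3.48 CPM in control and 5.27 and 5.797 CPM in Reg1-MO.

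Antigen presentation genes were also higher without any call. The MHC class I list had 14 of 15 tested genes above 0, 12 without overlap, with a median of 0.54. The class II list had 8 of 8 above 0, 4 without overlap, with a median of 0.72. Of all tested genes 48.9% were above 0 and 22.4% were higher without overlap. Control library 2 was the lowest for 14 of the 15 class I genes and 4 of the 8 class II genes. EdgeR and DESeq2 called 0 in both lists, with 11 and 5 genes at an unadjusted edgeR p under 0.05 (1296 of all 9125 genes). The class I chain H2-D1 was 1700.5 and 1340.4 CPM in control and 2099.6 and 2012 CPM in Reg1-MO, H2-K1 was 953 and 771 CPM against 1234 and 1273 CPM, and beta-2-microglobulin, B2m, was 1319 and 1172 CPM against 1669.8 and 1520.4 CPM. Cd74, the class II invariant chain, was 897 and 1072 CPM in control against 1054 and 2241 CPM in Reg1-MO, so the groups overlapped and Reg1-MO library 2 was the high one. H2-Aa and H2-Ab1 had the same high library, at 578 and 336 CPM. Without Reg1-MO library 2 the class II median was 0.11.

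**Figure D5:**
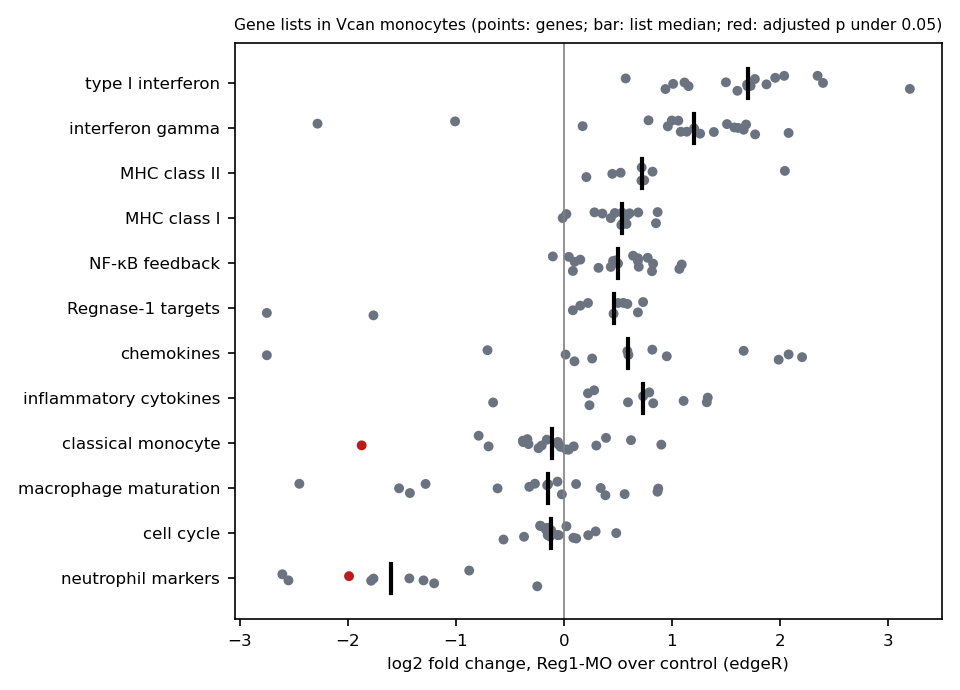
Log2 fold change of Reg1-MO over control in Vcan monocytes (x axis) for the tested genes of 12 lists; points are genes, bars the list medians, and red points passed the test. The interferon lists lie highest, with medians of 1.70 and 1.21, and the neutrophil markers lowest, with -1.60; Chil3 and Mmp8 are the 2 called genes in these lists.

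Zc3h12a, whose transcript is the target of Reg1-MOs on that reading, did not separate the groups in these cells. It was 58.3 and 35.8 CPM in control and 50.7 and 50.1 CPM in Reg1-MO, within the spread of the controls (0.08 ± 0.24, adjusted p = 0.913). It was detected in 44.7% to 52.8% of members, about as often as in T cells, where the share was 47.4% or more in each library. Transcript level does not measure the protein. Of 11 tested genes known as Regnase-1 targets 9 were above 0 (48.9% of all tested genes), with a median of 0.46. Of the 11, 3 were higher without overlap and 2 lower without overlap (22.4% and 24.5% of all genes). EdgeR called 0 and DESeq2 1, and 5 had an unadjusted edgeR p under 0.05 (1296 of all 9125 genes). Il1b, the interleukin-1 beta gene, was 1293 and 848 CPM in control and 1813 and 1749.6 CPM in Reg1-MO (0.73 ± 0.18, adjusted p = 0.108). Cxcl2, a neutrophil chemokine gene, was 454 and 284 CPM against 352 and 758 CPM with overlap. Lcn2, which is also a neutrophil marker, was 914 and 1245 CPM against 502 and 138 CPM (-1.76 ± 0.45, adjusted p = 0.122), and 27.5, 44.9, 7.99 and 14.8 CPM in T cells. The list therefore held genes on both sides of 0, with non-overlapping shares near those of all genes, and control library 2 was the lowest for 8 of the 11.

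NF-κB feedback genes, the inhibitors and subunits that the pathway itself induces, were above 0 in 18 of 19 cases (48.9% of all tested genes). Their median was 0.50, and 13 were higher without overlap (22.4% of all genes). EdgeR called 0 and DESeq2 1, and 12 had an unadjusted edgeR p under 0.05 (1296 of all 9125 genes). Nfkbia, the main inhibitor, was 483 and 326 CPM in control and 787 and 651 CPM in Reg1-MO (0.83 ± 0.19, adjusted p = 0.100). Nfkb1 was 250 and 179 CPM against 338 and 333 CPM. The inflammatory cytokine list had 10 of 11 genes above 0 with a median of 0.73. The chemokine list had 11 of 13 above 0 with a median of 0.60, against 48.9% of all tested genes above 0. In both lists edgeR called 0. In these lists 4 and 5 genes had an unadjusted p under 0.05, and DESeq2 called 1 and 0. Control library 2 was the lowest library for 16 of the 19 NF-κB feedback genes, 8 of the 11 cytokines and 9 of the 13 chemokines.

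The classical monocyte list went both ways. It had 7 genes above 0 and 13 below with a median of -0.11, and Chil3 was its 1 called gene. Without overlap 4 were higher and 8 lower (22.4% and 24.5% of all genes), and 10 of the 20 had an unadjusted p under 0.05 (1296 of all 9125 genes). Ly6c2, a surface antigen of classical monocytes, was 2075 and 1984 CPM in control and 1635 and 1577 CPM in Reg1-MO (-0.34 ± 0.11, adjusted p = 0.193), and Ccr2 was 540.0 and 546 CPM against 715 and 955 CPM (0.62 ± 0.15, adjusted p = 0.108). Neither passed the test. In the Ms4a family, Ms4a8a fell while 5 of the other 8 tested members, among them Ms4a4c, Ms4a6b and Ms4a6d, were above 0 without overlap (22.4% of all genes). By edgeR the coagulation list had 0 called of 13, the macrophage maturation list 0 of 17 and the cell cycle list 0 of 18, with medians of -0.22, -0.15 and -0.12. At an unadjusted p under 0.05 there were 4, 6 and 2, again beside 1296 of all 9125 genes, and DESeq2 called 1, 1 and 0. Apoe was 926 and 2209 CPM in control and 715 and 575 CPM in Reg1-MO (-1.28 ± 0.33), with control library 2 the high one. In the matrix and adhesion list, Fn1 was the 1 called gene of 22; the galectin gene Lgals3 was 2308 and 2322 CPM in control against 2152 and 1872 CPM, and Vim, which encodes vimentin, 2052 and 1652 CPM against 2373 and 2171 CPM. F5 was 196 and 168 CPM in control against 117 and 136 CPM, without overlap and short of the test (-0.52 ± 0.16, adjusted p = 0.173). Fcgr1, the high-affinity IgG receptor gene that interferon gamma induces, was 109 and 53.7 CPM against 215 and 266 CPM (1.55 ± 0.28, adjusted p = 0.0614). It was the highest of the 14 tested complement and Fc receptor genes, of which 6 were above 0 (48.9% of all tested genes) and 8 below. The median of those genes was -0.02, and edgeR called 0 and DESeq2 1. Glycolysis genes were above 0 in 19 of 20 cases (48.9% of all tested genes) by a median of 0.27. In that list 10 were higher without overlap (22.4% of all genes) and 6 had an unadjusted p under 0.05. EdgeR and DESeq2 called 0. The 3 most abundant, Gapdh, Pkm and Aldoa, overlapped between groups, and control library 2 was the lowest for 15 of the 20 genes.

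The low-Vcan cells and the Gpnmb-high macrophages of the same libraries were used to ask whether the treatment effect differed in the Vcan monocytes. Because all of them come from the same libraries, their effects are not independent. The interaction of cell class and treatment, with the library as a block, was called for 1 of 10277 genes (0.00973%) against low-Vcan cells, with 736 at an unadjusted p under 0.05. Against Gpnmb-high macrophages edgeR called it for 0 of 9915 (0%), with 928 at an unadjusted p under 0.05. None of the 24 genes called in Vcan monocytes passed this test after adjustment. An unadjusted interaction p under 0.05 was found for 14 of them against low-Vcan cells and 16 against Gpnmb-high macrophages. These genes were chosen for their effect in the same Vcan sums, which by itself favours small interaction p-values. The 14 and 16 therefore cannot show a difference between cell classes. For Ms4a8a the log2 fold change was -1.78 in Vcan monocytes, -1.03 in low-Vcan cells and -1.90 in Gpnmb-high macrophages, and for Chil3 it was -1.87, -1.76 and -2.91. For Fn1 it was -1.15 in Vcan monocytes and -0.24 in both other classes, but the interaction with low-Vcan cells did not pass (-0.91 ± 0.14, adjusted p = 0.181). Dusp2 was at 2.48 against 0.76 and 0.02 (interaction with low-Vcan cells 1.77 ± 0.32, adjusted p = 0.267, and with Gpnmb-high macrophages 2.48 ± 0.37, adjusted p = 0.0982).

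The 1 gene with a called interaction was Ms4a3, a membrane protein gene of granulocyte and monocyte progenitors and basophils. In Vcan monocytes it was 24.9 and 29.1 CPM in control and 50.7 and 19.5 CPM in Reg1-MO, with overlapping groups. In low-Vcan cells it was 251 and 144 CPM in control and 28.6 and 17.7 CPM in Reg1-MO. The treatment effect was 0.35 in the first and -3.02 in the second, an interaction of 3.36 ± 0.36 (adjusted p = 0.0417). In control libraries Ms4a3 was higher in low-Vcan cells than in Vcan monocytes, which was not so in Reg1-MO. The 8 mast cell and basophil markers summed to 136, 122, 23.1 and 46.2 CPM in low-Vcan cells, in control libraries 1 and 2 and Reg1-MO libraries 1 and 2. In Vcan monocytes they summed to 61.6, 104, 17.6 and 40.04 CPM, of which Hdc alone held 61.2, 101, 16.9 and 40.04 CPM. Hdc was the 1 gene of the 8 with a mean of 5 CPM or more over both cell classes. Ms4a2 was at 0 in both. The part of these markers in the result was not tested.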

How the data were processed

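Gene by cell matrices of 3′ droplet libraries were deposited as UMI counts; per the file headers they come from Cell Ranger 5.0.1, and mm10 and Seurat 4.0 stand in the submitters' processing notes. Cells were selected by the rule above, raw UMI counts were summed per library and cell class, and the library was the unit of every test. Groups came from the group field of the sample characteristics, and replicate numbers from the sample labels. Members, gene lists and rules for naming genes were chosen with earlier results of these data known; a few named by the rule are not reported here, and genes outside it (largest called changes, the 3 highest of a list, 15 higher and 10 lower marking genes) were chosen after their values were seen.

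Treatment and interaction effects used edgeR 4.0.16 in R 4.3.3 (glmQLFit, TMM, filterByExpr with a minimum count of 10, Benjamini-Hochberg over all genes tested); DESeq2 1.42.0 was an alternative, and the calls were tested on simulated data. The SE is the log2 fold change divided by the root of its F statistic. Shares were compared over libraries by exact permutation. Shares of cells with a UMI were also taken after thinning each cell to 5000 UMIs. Doublets were left in, and Scrublet (scanpy 1.11.5) was used only for an alternative that removed the highest-scoring cells, 0.8% per 1000 barcodes. Symbols shared by several identifiers were assigned to the one with most UMIs. Promoters are RefSeq sequences of GRCm38.p6, matched by symbol. Three-prime counting does not show isoforms, and strand use in counting is not given in the sources used here.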

Additional observations from a re-analysis of the deposited data

Results flagged for a closer look

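The treatment effect on Ms4a3 differed between Vcan monocytes and low-Vcan cells by 3.36 on the log2 scale (edgeR interaction, adjusted p = 0.0417), the 1 gene of 10277 for which a difference between these cell classes passed. Counts behind it were 65, 59, 78 and 37 UMIs in Vcan monocytes and 839, 406, 141 and 86 UMIs in low-Vcan cells, in control libraries 1 and 2 and Reg1-MO libraries 1 and 2. Ms4a3 was also called by this test in each fit that left out 1 library.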

How the results depend on the processing

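Against 24 called genes (9 higher, 15 lower), DESeq2 called 94 (50 and 44), no filter on low counts 655 (349 and 306), members with Vcan at 2 UMIs or more 11 (3 and 8), at 5 or more 66 (29 and 37), cells thinned to 5000 UMIs 102 (58 and 44), and members without the conditions on Gpnmb, Arg1 and Cxcl9 0 (0 and 0). Leaving out likely doublets gave 32, of which 15 were higher, S100a8 and S100a9 under 1% gave 20, and DESeq2-type size factors in edgeR gave 23. Leaving out 1 library at a time gave 9 to 842 calls, 1 to 472 higher and 8 to 370 lower; the lowest was without Reg1-MO library 2 and the highest without control library 1. No called gene changed sign under any of these 14 alternatives. With no overlap between groups, leaving out 1 library cannot reverse a sign, and the other alternatives reuse the same libraries. The unchanged signs are therefore no independent support. The cause of the changes in number was not tested. Zc3h12a ranged from -0.21 to 0.50 with 1 library left out, and was below 0 without control library 2.

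Libraries of the same number deviated together only weakly (r = 0.03 across genes), so the numbers were not taken to pair libraries; with the replicate block 321 genes were called (182 higher, 139 lower).

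The share difference of -0.156 percentage points of all cells became 0.0242 with Vcan at 2 UMIs or more, 0.327 (2.59% against 2.92%) without the conditions on Gpnmb, Arg1 and Cxcl9, and ranged from -0.818 to 0.506 with 1 library left out; within the monocyte and macrophage gate, -2.82 ranged from -6.56 to 0.928. Interaction calls against low-Vcan cells were 122 without the filter and 2 to 54 with 1 library left out, and against Gpnmb-high macrophages 237 and 6 to 71. With 92 to 159 members per library, 3 UMIs correspond to 1.15 to 1.95 CPM, so genes near that level were not tested or rest on few molecules.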
